A study of Homo sapiens with 24 samples.

Results

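ALPP, CAV1, CAV2, ANKRD22, GAS2L3 and ASPM are 6 genes whose HER2 siRNA effect differed between 4 and 24 h in BT-474 cells. This line was derived from a human breast tumour, carries extra copies of ERBB2, the gene of HER2, and makes the estrogen receptor. The genes were picked on that difference in these same arrays, with CAV2 added as the partner of CAV1. They are 6 of 19775 genes with a probe set of their own, and are represented by the 13 probe sets annotated to 1 of them alone, out of 54675 on the Affymetrix HG-U133 Plus 2.0 array. Of these, 12 were among the 26508 probe sets tested, which carry 1 gene symbol and a log2 level of at least 5 in at least 3 arrays. The CAV2 probe set 213426_s_at missed that filter.

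The cells received HER2 siRNA or control siRNA, then estrogen at 10 nM or its vehicle, ethanol at 0.001%, for 24 or 4 h. This made 8 groups of 3 arrays, namely HER2 siRNA and control siRNA with estrogen for 24 h, with vehicle for 24 h, with estrogen for 4 h and with vehicle for 4 h. The 2 times are durations of the hormone or vehicle treatment, and the labels do not give the time since siRNA was added. All groups are 1 cell line, and the labels do not say whether the 3 arrays of a group are separate cultures, so the spread behind each p-value is that of these arrays and may be technical. Their number limits the precision.

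CAV1 and CAV2 encode caveolins, membrane proteins that coat caveolae, the flask-shaped pits of the plasma membrane. CAV2 forms oligomers with CAV1 and depends on it to leave the Golgi. ALPP encodes placental alkaline phosphatase, an enzyme held on the cell surface by a glycosylphosphatidylinositol (GPI) anchor and normally made in placenta. ASPM sits at spindle poles, where it binds microtubule minus ends, and GAS2L3 links microtubules and actin and acts in cytokinesis. ANKRD22 is a small protein with ankyrin repeats. Many genes of late cell cycle carry CCAAT boxes and a CHR element in their promoters, and forkhead factors of the FOXO family, which signalling through HER2 and AKT restrains, bind a different motif.

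Promoter windows are shown for the pair of genes that fell and whose window at the gene start holds those motifs, ASPM and ANKRD22, and for the 2 caveolin genes, which were both higher with HER2 siRNA. Each window is RefSeq sequence on build GRCh38.p14 and runs from 250 bases before to 50 bases after the annotated start of the gene. Capitals mark CCAAT and TTTGAA (the CHR element) on either strand, and no marked stretches overlap. ASPM lies on chr1:197146620-197146919, minus strand, ANKRD22 on chr10:88851795-88852094, minus strand, CAV1 on chr7:116524759-116525058, plus strand, and CAV2 on chr7:116499488-116499787, plus strand. Of the other genes, ALPP spans chr2:232378751-232382889 and GAS2L3 chr12:100573684-100628288.
ASPM: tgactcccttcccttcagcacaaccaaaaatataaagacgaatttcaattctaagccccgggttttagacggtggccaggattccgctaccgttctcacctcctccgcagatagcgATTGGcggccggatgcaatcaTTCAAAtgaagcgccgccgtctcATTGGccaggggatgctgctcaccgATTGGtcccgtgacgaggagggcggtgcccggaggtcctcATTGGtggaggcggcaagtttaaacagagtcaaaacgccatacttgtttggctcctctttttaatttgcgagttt
ANKRD22: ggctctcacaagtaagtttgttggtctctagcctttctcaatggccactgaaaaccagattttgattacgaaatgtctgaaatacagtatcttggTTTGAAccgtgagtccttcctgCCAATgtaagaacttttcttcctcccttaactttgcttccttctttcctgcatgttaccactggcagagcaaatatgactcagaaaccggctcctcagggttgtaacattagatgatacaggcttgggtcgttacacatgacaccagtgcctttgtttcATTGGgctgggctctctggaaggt
CAV1: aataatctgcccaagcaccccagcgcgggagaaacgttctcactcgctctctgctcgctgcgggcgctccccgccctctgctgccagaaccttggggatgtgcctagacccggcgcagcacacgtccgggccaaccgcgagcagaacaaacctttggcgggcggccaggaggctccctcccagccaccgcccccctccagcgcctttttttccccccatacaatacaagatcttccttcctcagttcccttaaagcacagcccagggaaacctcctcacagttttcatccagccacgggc
CAV2: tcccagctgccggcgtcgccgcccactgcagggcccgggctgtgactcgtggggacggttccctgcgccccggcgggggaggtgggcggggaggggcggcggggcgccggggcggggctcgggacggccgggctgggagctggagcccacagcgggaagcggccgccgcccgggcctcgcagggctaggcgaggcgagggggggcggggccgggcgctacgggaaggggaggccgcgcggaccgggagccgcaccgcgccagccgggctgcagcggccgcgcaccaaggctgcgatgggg

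The ASPM window held 4 CCAAT boxes, at -134, -90, -65 and -25, and a CHR element at -113, all read on the strand opposite to the gene and counted from the start site. The ANKRD22 window held 2 CCAAT boxes, at -133 and 26, and a CHR element at -155. No window of ALPP, CAV1 or CAV2 held either motif. The FOXO motif, searched as GTAAACA on both strands, was found in no window of the 6 genes. The only GAS2L3 window in the sequence table starts 19934 bases inside the gene and held none of the 3 motifs. Among all 35116 windows of 300 bases, 34.6% held CCAAT, 15.2% TTTGAA and 3.42% GTAAACA. A match describes letters in these windows and is no measure of binding.

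ERBB2, the target of the siRNA, was lower at both times. Its brightest probe set, 216836_s_at, stood between 11.86 and 12.69 on the 12 HER2 siRNA arrays, against 13.39 to 13.94 on the 12 control siRNA arrays. The difference was -1.22 ± 0.08 at 24 h and -1.46 ± 0.08 at 4 h (log2 difference ± standard error). The change between times, 0.24 ± 0.11, did not pass (adjusted p = 0.31, limma). Luminal markers were present, with all 9 at mean log2 levels between 9.01 and 13.42. Array medians were 5.28 to 5.36, and arrays of 1 group correlated at 0.991 to 0.997.

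Levels below are log2 RMA levels, and differences between groups are on the same log2 scale. Arrays are given in the order of replicates 1, 2 and 3. HER2 siRNA effects at each time, and changes between the times within an siRNA, chose the genes and are given as a description with no test. Tests are given only for contrasts that are orthogonal to that choice in this balanced design, although they share its estimate of spread. Orthogonality concerns the noise of the arrays. The averages over time or over siRNA are made of the effects and changes that chose the genes, so their p-values are no separate support.

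ALPP was higher after HER2 siRNA at 24 h, with little difference at 4 h. With estrogen for 24 h, ALPP probe set 204664_at read 6.02, 6.66 and 6.41 with HER2 siRNA, against 4.20, 4.61 and 4.56 with control siRNA. With vehicle at 24 h it read 5.97, 5.70 and 5.85 with HER2 siRNA, against 3.96, 4.03 and 3.96 with control siRNA. The 6 HER2 siRNA arrays at 24 h were the only ones to reach a log2 level of 5. At 4 h with estrogen the arrays read 4.66, 4.46 and 4.74 with HER2 siRNA, against 4.58, 4.49 and 4.54 with control siRNA. With vehicle at 4 h they read 4.62, 4.88 and 4.23 with HER2 siRNA, against 4.29, 4.42 and 4.49 with control siRNA. The siRNA groups overlapped in both conditions at 4 h and in neither at 24 h. Averaged over hormone, the difference was 1.88 ± 0.11 at 24 h, or 3.68-fold, and 0.13 ± 0.11 at 4 h. Its growth, 1.75 ± 0.15, ranked 5 by size among all tested probe sets, and was 1.82 ± 0.21 with estrogen and 1.68 ± 0.21 with vehicle.

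Between the times, the ALPP level with HER2 siRNA was 1.50 ± 0.11 higher at 24 h than at 4 h, while with control siRNA it differed by -0.25 ± 0.11. By mean level, HER2 siRNA with estrogen for 24 h (6.37 ± 0.32, SD, n = 3) stood above HER2 siRNA with vehicle for 24 h (5.84 ± 0.14), and these neighbours did not overlap. The other groups lay between 3.98 and 4.62, and only control siRNA with vehicle for 24 h, at the bottom, stood apart from all the rest. In bulk RNA, more cells with ALPP and more ALPP per cell cannot be told apart. ALPP has 1 probe set of its own. A probe set shared with its neighbour ALPG, a germ cell alkaline phosphatase 23954 bases away on chromosome 2, ranged from 4.81 to 5.62 and differed between siRNAs by 0.10 ± 0.09 at 24 h and by -0.13 ± 0.09 at 4 h.

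**Figure D1:**
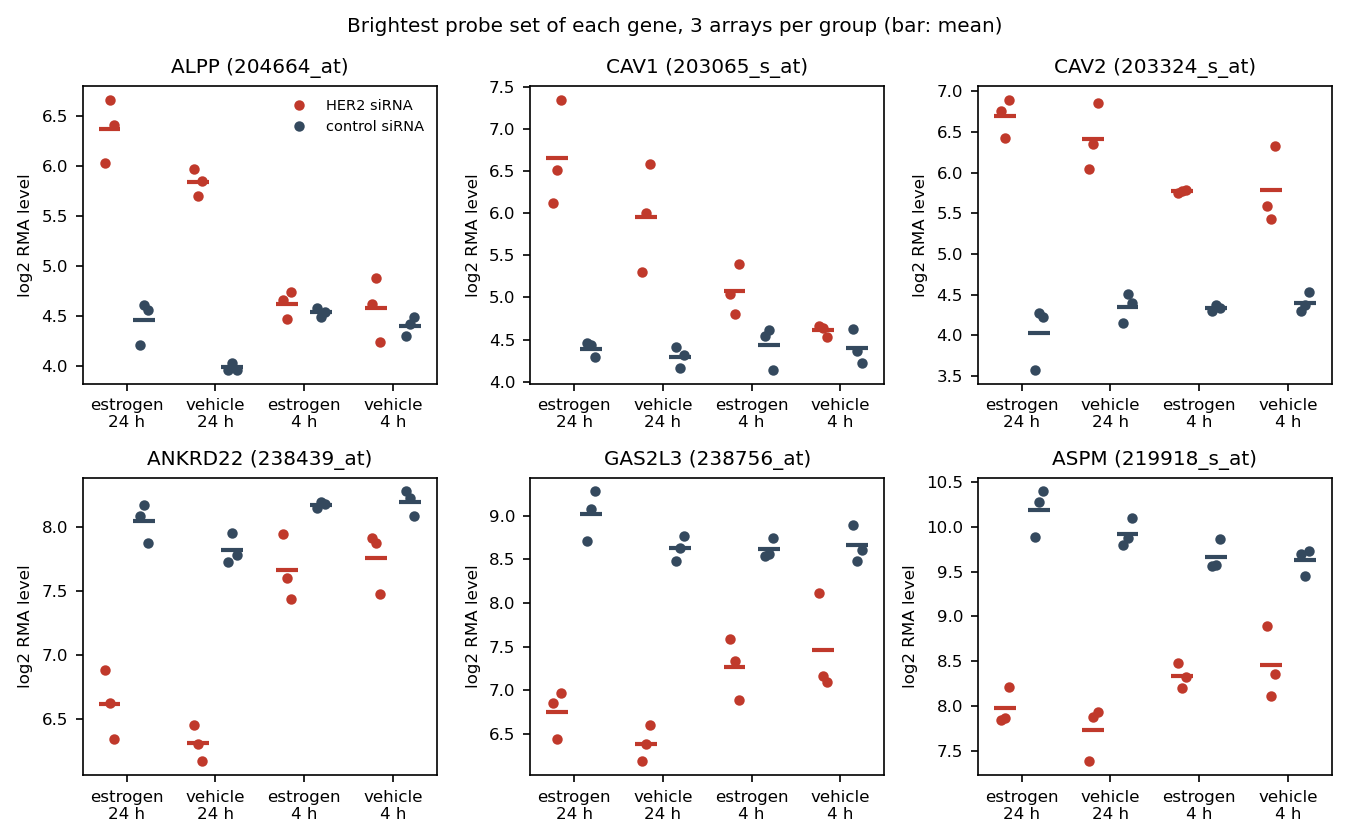
Log2 RMA level of the brightest probe set of each gene on every array, by hormone and time, with HER2 siRNA (red) left of control siRNA (dark blue) and a bar at each mean of 3 arrays. ALPP, CAV1 and CAV2 are highest with HER2 siRNA at 24 h, while ANKRD22, GAS2L3 and ASPM are lowest there.

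CAV1 was also highest with HER2 siRNA at 24 h, and its HER2 siRNA arrays spread widely there. At 24 h with estrogen, its brighter probe set, 203065_s_at, read 6.12, 6.51 and 7.35 with HER2 siRNA, against 4.46, 4.43 and 4.29 with control siRNA. With vehicle at 24 h it read 5.297, 6.004 and 6.59 with HER2 siRNA, against 4.41, 4.16 and 4.32 with control siRNA. Replicate 3 was the highest of the HER2 siRNA arrays in both conditions, and no array overlapped between siRNAs. At 4 h with estrogen the arrays read 5.04, 4.81 and 5.40 with HER2 siRNA, against 4.54, 4.61 and 4.14 with control siRNA. With vehicle at 4 h they read 4.66, 4.63 and 4.54 with HER2 siRNA, against 4.62, 4.36 and 4.22 with control siRNA. The siRNA groups were apart with estrogen at 4 h and overlapped with vehicle. The difference averaged over hormone was 1.97 ± 0.19 at 24 h, or 3.91-fold, and 0.43 ± 0.19 at 4 h.

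The other CAV1 probe set, 212097_at, gave the same order of times with larger differences. With estrogen at 24 h it read 6.20, 6.35 and 7.50 with HER2 siRNA, against 3.51, 3.16 and 3.30 with control siRNA. Vehicle at 24 h gave 4.83, 5.73 and 6.18 with HER2 siRNA, against 3.47, 3.10 and 3.47 with control siRNA. Each gap is the widest among the probe sets of ALPP, CAV1 and CAV2 in its condition, 3.36 ± 0.32 with estrogen (10.3-fold) and 2.23 ± 0.32 with vehicle (4.70-fold). At 4 h the HER2 siRNA arrays read 3.82 to 4.96 and the control siRNA arrays 2.87 to 3.62, with a difference of 0.90 ± 0.22. The growth of the effect was 1.90 ± 0.32 for 212097_at and 1.53 ± 0.26 for 203065_s_at, which ranked 2 and 9 by size. Across 24 arrays the 2 probe sets correlated at 0.978, a description over arrays that share 8 groups.

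For CAV2, HER2 siRNA already stood well above control siRNA at 4 h, and further above it at 24 h. At 24 h with estrogen, its brightest probe set, 203324_s_at, read 6.75, 6.42 and 6.90 with HER2 siRNA, against 3.57, 4.27 and 4.22 with control siRNA. With vehicle at 24 h it read 6.04, 6.35 and 6.86 with HER2 siRNA, against 4.15, 4.50 and 4.39 with control siRNA. The low array of the control groups was replicate 1 with estrogen. At 4 h with estrogen the arrays read 5.75, 5.77 and 5.79 with HER2 siRNA, against 4.30, 4.37 and 4.33 with control siRNA. With vehicle at 4 h they read 5.59, 5.43 and 6.33 with HER2 siRNA, against 4.30, 4.37 and 4.53 with control siRNA. HER2 siRNA and control siRNA arrays did not overlap in any of the 4 conditions. The difference was 2.37 ± 0.15 at 24 h (5.16-fold) and 1.41 ± 0.15 at 4 h (2.66-fold). By mean level the HER2 siRNA groups ran from 6.69 ± 0.24 with estrogen for 24 h, through 6.42 ± 0.41 with vehicle for 24 h, to 5.78 ± 0.48 with vehicle and 5.77 ± 0.02 with estrogen for 4 h (SD, n = 3 each), and each neighbour in that order overlapped with the next. The 4 control siRNA groups lay below, between 4.02 and 4.40.

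Of the other CAV2 probe sets, 203323_at showed the same pattern and 213426_s_at did not. Probe set 203323_at read 5.11 to 5.93 with HER2 siRNA at 24 h, against 3.48 to 4.02 with control siRNA. At 4 h it read 4.48 to 4.82 with HER2 siRNA, against 3.84 to 4.24 with control siRNA. Its difference was 1.73 ± 0.09 at 24 h and 0.71 ± 0.09 at 4 h. Probe set 213426_s_at stayed between 4.48 and 5.18 on every array, with a difference of 0.01 ± 0.08 at 24 h and -0.09 ± 0.08 at 4 h. The files used here do not say which transcripts these probe sets read. CAV2 and CAV1 lie 16.5 kb apart on chromosome 7 in RefSeq's GRCh38.p14 annotation.

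**Figure D2:**
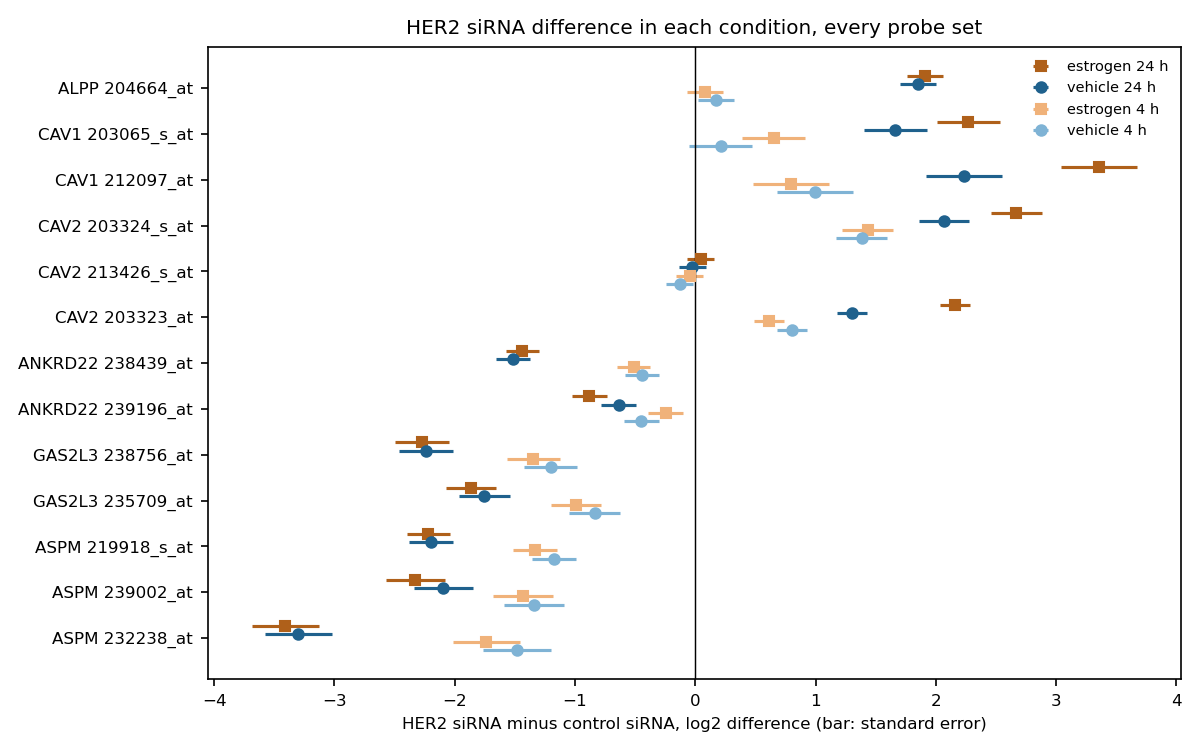
Log2 difference, HER2 siRNA minus control siRNA, of all 13 probe sets in each condition (circles vehicle, squares estrogen, dark 24 h, pale 4 h), with bars of 1 standard error from the fit over 24 arrays. In 12 probe sets the dark symbols lie farther from 0 than the pale ones. The genes other than CAV2 were picked for this. CAV2 213426_s_at stays near 0.

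ANKRD22 was lower after HER2 siRNA, by about 1 log2 unit more at 24 h than at 4 h. At 24 h with estrogen, its brighter probe set, 238439_at, read 6.88, 6.62 and 6.34 with HER2 siRNA, against 8.09, 8.17 and 7.88 with control siRNA. With vehicle at 24 h it read 6.45, 6.30 and 6.16 with HER2 siRNA, against 7.73, 7.96 and 7.79 with control siRNA. Every HER2 siRNA array at 24 h lay below every other array of the series. At 4 h with estrogen the arrays read 7.95, 7.61 and 7.44 with HER2 siRNA, against 8.15, 8.20 and 8.18 with control siRNA. With vehicle at 4 h they read 7.91, 7.88 and 7.48 with HER2 siRNA, against 8.29, 8.23 and 8.09 with control siRNA. The siRNA groups were apart in all 4 conditions. The difference was -1.48 ± 0.10 at 24 h (2.78-fold lower) and -0.48 ± 0.10 at 4 h. The second probe set, 239196_at, moved less, with -0.76 ± 0.10 at 24 h and -0.35 ± 0.10 at 4 h. Its growth of -0.41 ± 0.15 ranked only 1265 by size, against 40 for 238439_at (-0.998 ± 0.14), and its siRNA groups overlapped with estrogen at 4 h.

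GAS2L3 was lower after HER2 siRNA at both times. At 24 h with estrogen, probe set 238756_at read 6.85, 6.44 and 6.97 with HER2 siRNA, against 8.71, 9.08 and 9.28 with control siRNA. With vehicle at 24 h it read 6.19, 6.38 and 6.60 with HER2 siRNA, against 8.48, 8.63 and 8.77 with control siRNA. No array overlapped between siRNAs. At 4 h with estrogen the arrays read 7.59, 7.33 and 6.89 with HER2 siRNA, against 8.54, 8.57 and 8.75 with control siRNA. With vehicle at 4 h they read 8.12, 7.16 and 7.10 with HER2 siRNA, against 8.90, 8.48 and 8.60 with control siRNA. Replicate 1 with HER2 siRNA and vehicle stood nearly 1 log2 unit above the other 2 arrays of its group. The difference was -2.26 ± 0.16 at 24 h (4.78-fold lower) and -1.27 ± 0.16 at 4 h (2.42-fold lower). Probe set 235709_at gave -1.81 ± 0.15 at 24 h and -0.91 ± 0.15 at 4 h. The growth was -0.98 ± 0.22 and -0.89 ± 0.21 for the 2 probe sets. With vehicle alone the growth of 238756_at was -1.04 ± 0.31, and it was -0.71 without HER2 siRNA vehicle 4 h replicate 1.

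ASPM was lower after HER2 siRNA in every condition. At 24 h with estrogen, probe set 219918_s_at read 7.84, 7.86 and 8.21 with HER2 siRNA, against 9.89, 10.28 and 10.40 with control siRNA. With vehicle at 24 h it read 7.38, 7.88 and 7.93 with HER2 siRNA, against 9.80, 9.87 and 10.10 with control siRNA. At that time no HER2 siRNA array was above 8.21 and no control siRNA array below 9.80. At 4 h with estrogen the arrays read 8.48, 8.20 and 8.32 with HER2 siRNA, against 9.56, 9.57 and 9.86 with control siRNA. With vehicle at 4 h they read 8.89, 8.11 and 8.35 with HER2 siRNA, against 9.70, 9.45 and 9.73 with control siRNA. The groups were apart there too, though closer. The difference was -2.21 ± 0.13 at 24 h (4.62-fold lower) and -1.25 ± 0.13 at 4 h (2.38-fold lower).

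The 3 ASPM probe sets had the same direction and different sizes. Probe set 232238_at had the most negative growth of all 26508 tested probe sets, -1.74 ± 0.28, in the contrast that chose the genes. It read 3.81 to 4.43 with HER2 siRNA at 24 h, against 7.31 to 7.67 with control siRNA, a difference of -3.35 ± 0.20 (10.2-fold lower). At 4 h its arrays ranged from 4.53 to 6.16 with HER2 siRNA, against 6.28 to 7.44 with control siRNA, a difference of -1.61 ± 0.20. Probe set 239002_at differed by -2.21 ± 0.17 at 24 h and -1.39 ± 0.17 at 4 h, with a growth of -0.82 ± 0.25. Its growth with vehicle was -0.41 without HER2 siRNA vehicle 4 h replicate 1, against -0.75 ± 0.35 with all arrays. The gap widened from both sides. The 24 h minus 4 h difference of 219918_s_at was -0.54 ± 0.13 with HER2 siRNA and 0.41 ± 0.13 with control siRNA. That of 232238_at was -1.16 ± 0.20 with HER2 siRNA and 0.58 ± 0.20 with control siRNA.

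In 11 of the 12 tested probe sets the 24 h minus 4 h difference was larger in size with HER2 siRNA than with control siRNA, and GAS2L3 235709_at was the other one. For CAV1 203065_s_at it was 1.46 ± 0.19 with HER2 siRNA and -0.07 ± 0.19 with control siRNA. For ANKRD22 238439_at it was -1.25 ± 0.10 with HER2 siRNA and -0.25 ± 0.10 with control siRNA. For GAS2L3 235709_at it was -0.40 ± 0.15 with HER2 siRNA and 0.49 ± 0.15 with control siRNA. The GAS2L3 and ASPM probe sets had a positive value with control siRNA, and those of ANKRD22 a negative one. These values are descriptions, since they are parts of the contrast that chose the genes.

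Averaged over the 4 conditions, HER2 siRNA differed from control siRNA in all 12 probe sets that passed the filter, 5 higher and 7 lower (adjusted p under 0.05, limma). The same was true of 57.1% of all tested probe sets, 27.3% higher and 29.8% lower, around a median difference of -0.01. The 5 higher probe sets passed the filter through HER2 siRNA arrays alone. ALPP and CAV2 203323_at reached a log2 level of 5 on the 6 HER2 siRNA arrays at 24 h, the CAV1 probe sets on 5 and 8 HER2 siRNA arrays, and CAV2 203324_s_at on the 12 HER2 siRNA arrays. GAS2L3 235709_at, ASPM 239002_at and ASPM 232238_at reached it on all control siRNA arrays and on fewer HER2 siRNA arrays. The filter thus bears on the direction of these 8, and nothing is read from the count of 12. As values, ALPP was 1.01 ± 0.07 and CAV2 203324_s_at 1.89 ± 0.11 above control siRNA. All arrays were above the filter level for the next 3 probe sets: ANKRD22 238439_at differed by -0.98 ± 0.07 (adjusted p = 9.39e-11), GAS2L3 238756_at by -1.76 ± 0.11 (adjusted p = 1.05e-11) and ASPM 219918_s_at by -1.73 ± 0.09 (adjusted p = 4.23e-13, limma). Their average is made of the siRNA effects that chose the genes, so these p-values give no support apart from the choice. The largest averaged fall was that of ASPM 232238_at, -2.48 ± 0.14 or 5.58-fold, and the smallest that of ANKRD22 239196_at, -0.55 ± 0.07.

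Averaged over siRNA and hormone, 24 h differed from 4 h in 6 of the 12 probe sets, 4 higher and 2 lower, against 16.1% of all tested probe sets, 6.93% higher and 9.2% lower. The 4 higher ones, ALPP (0.63 ± 0.07), CAV1 212097_at (0.96 ± 0.16) and 203065_s_at, and CAV2 203323_at, passed the filter wholly or mainly through HER2 siRNA arrays at 24 h, so nothing is read from their count. ANKRD22 238439_at (-0.75 ± 0.07, adjusted p = 4.49e-07) and 239196_at (-0.29 ± 0.07, adjusted p = 0.0101, limma) were lower. No ASPM or GAS2L3 probe set passed, and their values lay between -0.30 and 0.04. CAV2 203324_s_at differed by 0.30 ± 0.11 (adjusted p = 0.058).

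At 4 h no estrogen effect passed in the 6 genes. With either siRNA, 0 of 12 probe sets passed in limma, and 0 had an unadjusted p under 0.05, against 0.472% of all tested probe sets called with HER2 siRNA and 0.223% with control siRNA. With array weights, an intensity trend, a replicate block or no filter the count was also 0. The widest 4 h difference was 0.47 ± 0.26 for CAV1 203065_s_at with HER2 siRNA (95% interval -0.07 to 1.02).

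At 24 h in cells that had HER2 siRNA, the values of ALPP and CAV2 203323_at were higher with estrogen, with calls near the threshold. There 2 of 12 probe sets passed, both higher, against 3.03% of all tested probe sets higher and 4.28% in either direction. Both reached a log2 level of 5 on the HER2 siRNA arrays at 24 h alone. These are the arrays compared here, so nothing is read from this count, and the 2 calls are not taken as support. ALPP was 0.53 ± 0.15 higher (1.44-fold, adjusted p = 0.0487), with the estrogen arrays (6.02 to 6.66) above the vehicle arrays (5.70 to 5.97). CAV2 203323_at was 0.47 ± 0.12 higher (1.39-fold, adjusted p = 0.0316, limma). CAV1 212097_at differed by 1.10 ± 0.32 (2.15-fold, adjusted p = 0.0506), and passed with the replicate block (adjusted p = 0.0222), as replicate numbers pair the arrays of these 2 groups. CAV1 203065_s_at had a difference of 0.70 ± 0.26 (adjusted p = 0.182), with overlapping arrays, and CAV2 203324_s_at one of 0.27 ± 0.21. The calls of ALPP and CAV2 203323_at were near the threshold. The ALPP call held in 10 of 35 alternatives, with adjusted p from 0.00698 to 0.301, and the CAV2 call in 29 of 34, from 0.000899 to 0.245. Without the filter the ALPP call did not hold (adjusted p = 0.0646, limma). The CAV2 call ended when replicate 1 (0.148) or 2 (0.0714) of the vehicle arrays, or replicate 2 (0.203) or 3 (0.183) of the estrogen arrays, was left out, and when only the groups compared were fitted (0.245). The ALPP call ended when any of the 6 arrays compared, other than estrogen replicate 1, was left out (adjusted p from 0.061 to 0.301). CAV1 203065_s_at passed without vehicle replicate 3 (adjusted p = 0.0286) or estrogen replicate 1 (0.0456).

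With control siRNA at 24 h, 1 of 12 probe sets passed, against 9.69% of all tested probe sets, and 4.97% higher. That was ALPP, 0.48 ± 0.15 higher with estrogen (adjusted p = 0.0484, limma), a call that held in 12 of 35 alternatives with adjusted p from 0.0119 to 0.168. It ended without any of the 6 arrays compared other than estrogen replicate 1 (0.0926 to 0.168). These 6 arrays read 3.96 to 4.61, all under the filter level of 5, which ALPP reached with HER2 siRNA at 24 h alone. CAV2 203323_at differed the other way, by -0.39 ± 0.12, with arrays of 3.48 to 3.66 with estrogen, against 3.86 to 4.02 with vehicle. This did not pass (adjusted p = 0.0541), though it passed in 7 alternatives. The CAV2 arrays compared were also under the filter level. ANKRD22, GAS2L3 and ASPM showed no call with either siRNA. Their 24 h differences ranged from -0.14 to 0.36 with HER2 siRNA and from -0.03 to 0.40 with control siRNA, and the 95% interval for ASPM 219918_s_at with HER2 siRNA, -0.13 to 0.62, leaves room for a change of either sign.

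**Figure D3:**
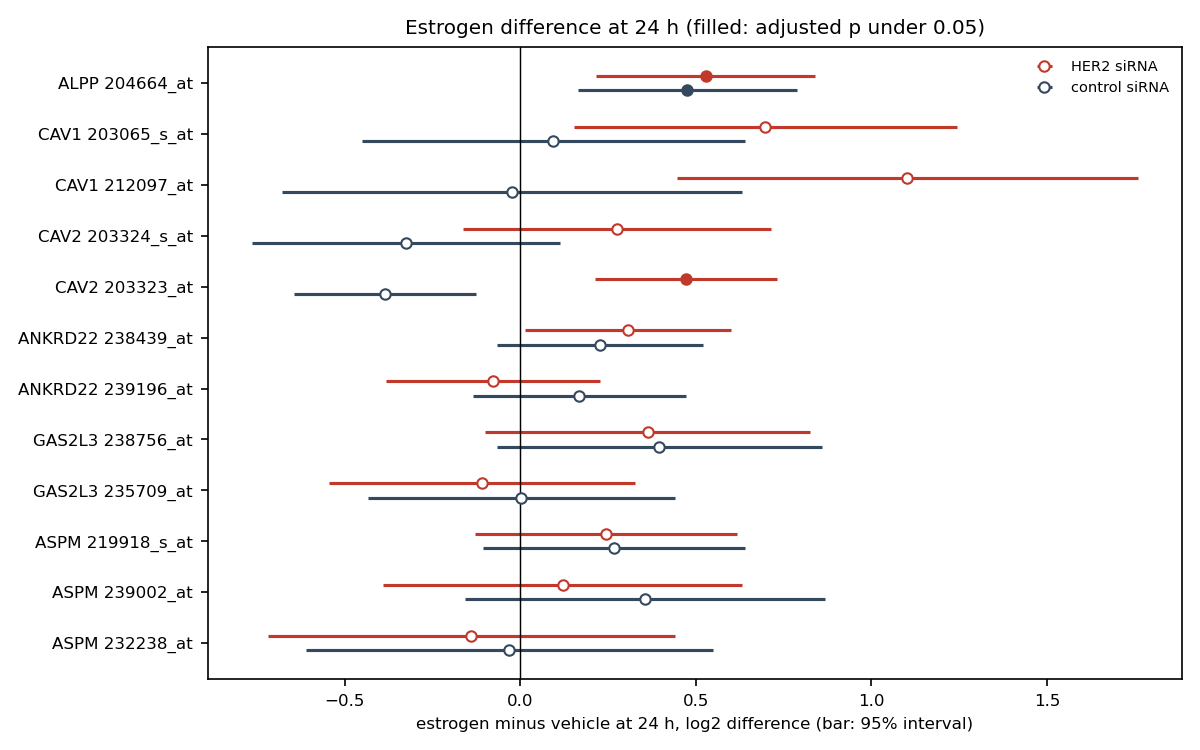
Log2 difference, estrogen minus vehicle at 24 h, of the 12 tested probe sets with HER2 siRNA (red) and control siRNA (dark blue), with 95% intervals and filled symbols for an adjusted p under 0.05. ALPP is filled with both siRNAs, and CAV2 203323_at is filled at 0.47 with HER2 siRNA and open at -0.39 with control siRNA.

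With all arrays and no replicate block, the estrogen effect was not shown to differ between the siRNAs for any of the 6 genes. At 24 h 0 of 12 probe sets passed the test of that difference, 2 had an unadjusted p under 0.05, and 0.049% of all tested probe sets passed. At 4 h 0 of 12 passed and 0 had an unadjusted p under 0.05. CAV2 203323_at came nearest at 24 h, with 0.86 ± 0.18 (adjusted p = 0.0968, limma). It passed with the replicate number as a block (adjusted p = 0.0169) and without HER2 siRNA estrogen 24 h replicate 1 (adjusted p = 0.00341), so its call depends on these choices. For ALPP the difference between siRNAs was 0.05 ± 0.21, with a 95% interval of -0.39 to 0.49. Nor did the growth of the HER2 siRNA effect itself pass as different between estrogen and vehicle. None of 26508 probe sets did in limma (999 had an unadjusted p under 0.05, and 0 passed with array weights or an intensity trend), and 2 of 12 member probe sets had an unadjusted p under 0.05. These were CAV1 212097_at, at 1.32 ± 0.63, and CAV2 203323_at, at 1.05 ± 0.25.

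Related genes were described from lists drawn up with earlier results of these data known, each gene by its brightest probe set. Of 7 tested genes that coat, bend or anchor caveolae, 1 rose and 3 fell in the averaged siRNA comparison, with a median of -0.10. Over all tested probe sets, 27.3% were higher and 29.8% lower in that comparison. EHD1, a membrane ATPase, was 0.23 ± 0.04 higher (adjusted p = 3.54e-05), and EHD4 differed by -0.22 ± 0.04 (adjusted p = 3.61e-05, limma). The siRNA effect of EHD4 also changed between the times, by -0.34 ± 0.08 (adjusted p = 0.0195, limma). That was the only change between times to pass among these 7, against 2.34% of all tested probe sets. CAVIN1, the main coat partner of CAV1, was singled out after its values were seen. It stood between 5.28 and 6.15 and differed by -0.07 ± 0.08 (adjusted p = 0.505). CAVIN2, CAVIN3 and CAVIN4 were below the filter. Of the 3 tested neighbours of the caveolin genes on chromosome 7, MET, a receptor tyrosine kinase, was 0.29 ± 0.04 higher (adjusted p = 3.91e-06), while TES differed by 0.07 and CAPZA2 by 0.01.

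Of 7 tested alkaline phosphatases and subunits of the GPI transamidase, 2 rose and 3 fell, with a median of 0.00319, again against 27.3% higher and 29.8% lower over all tested probe sets. ALPI, intestinal alkaline phosphatase, was 0.21 ± 0.07 higher (adjusted p = 0.0112, limma). ALPG, by its brightest probe set, was 0.17 ± 0.06 higher (adjusted p = 0.0195, limma). Both differences were smaller than that of ALPP. The ALPG rise was not seen in its other probe sets. Another of its own, at 5.68 to 6.42, differed by -0.03 ± 0.08, and the one shared with ALPP by -0.01 ± 0.06. PIGU, a transamidase subunit, differed by -0.80 ± 0.05 (adjusted p = 5.93e-12). Its siRNA effect changed by -0.11 ± 0.10 between the times. That of PIGT, another subunit, changed by -0.44 ± 0.10 (adjusted p = 0.028, limma). No other change between times passed among these 7, against 2.34% of all tested probe sets. Of the 3 tested neighbours of ANKRD22 on chromosome 10, 1 rose and 1 fell, with a median of 0.15, and for none did the change between times pass. STAMBPL1, a deubiquitinase, fell by 0.58 ± 0.09 (adjusted p = 9.84e-06) with a change between times of -0.01 ± 0.18. ACTA2, smooth muscle actin, rose by 0.15 ± 0.06 (adjusted p = 0.0482, limma). FAS, a death receptor, differed by 0.30 ± 0.20 (adjusted p = 0.217), and its change between times was -0.99 ± 0.40 (adjusted p = 0.21). The 2 tested relatives of GAS2L3, GAS2L1 and GAS2L2, differed by -0.05 and -0.12 and did not pass.

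Other genes of cell division fell with HER2 siRNA as well. All 12 tested cytokinesis genes fell in the averaged siRNA comparison (median -1.75), where 29.8% of all tested probe sets were lower, among them PRC1, which bundles midzone microtubules (-1.81 ± 0.06, adjusted p = 2.02e-15), and ANLN, anillin (-2.06 ± 0.08, adjusted p = 6.62e-15, limma). Of 11 tested spindle pole and centriole genes, 9 fell (median -0.48), led by TPX2, an activator of Aurora A (-1.72 ± 0.07, adjusted p = 1.75e-14). NUMA1, named after its values were seen, rose by 0.42 ± 0.04 (adjusted p = 1.61e-08), and KATNA1 differed by 0.02. The growth of the siRNA effect between the times passed for 1 gene in each of these lists, against 2.34% of all tested probe sets. They were KIF20A (-0.77 ± 0.18, adjusted p = 0.0257) and TPX2 (-0.59 ± 0.14, adjusted p = 0.0343, limma). A change between times also passed for 1 gene in the caveola list and 1 in the alkaline phosphatase list. The median growth was -0.46 for the cytokinesis list and -0.17 for the spindle list, against -0.00155 over all tested probe sets. In bulk RNA, fewer cells that carry these transcripts and less of them per cell cannot be told apart.

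**Figure D4:**
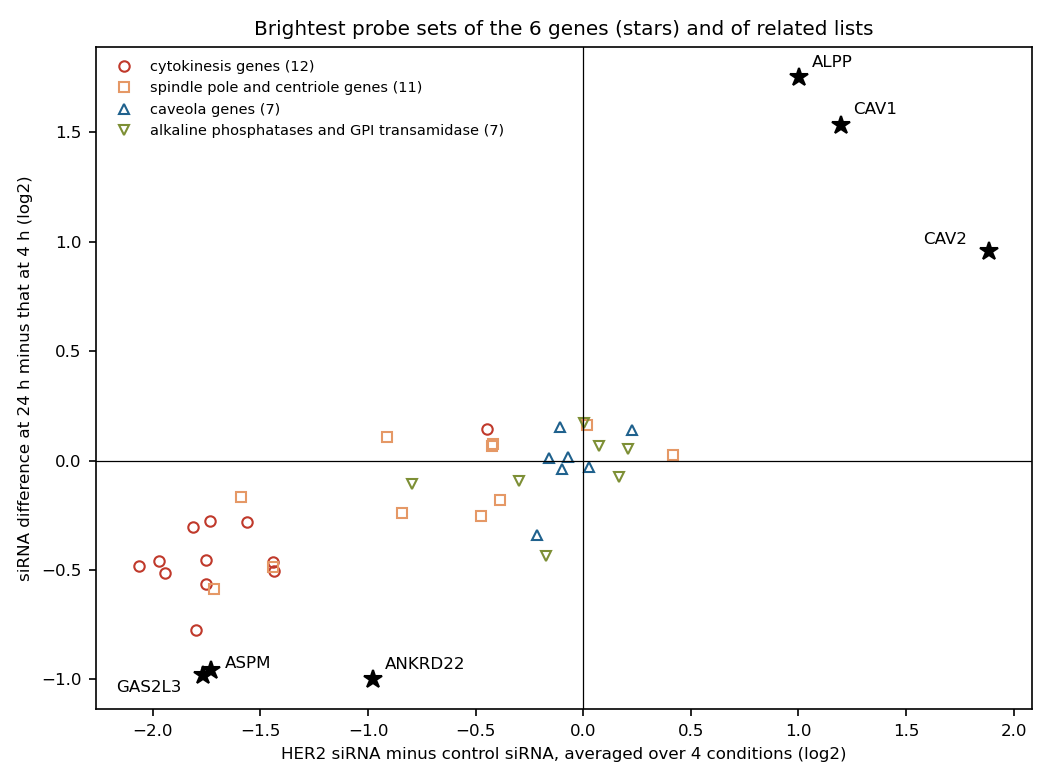
HER2 siRNA minus control siRNA averaged over the 4 conditions (x axis, log2) against the siRNA difference at 24 h minus that at 4 h (y axis, log2), for the brightest probe set of the 6 genes (stars) and of 4 related lists. The stars lie beyond the list genes on the y axis, for which the genes other than CAV2 were picked. GAS2L3 and ASPM share the x range of the cytokinesis genes.

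The genes most like each of the 6 over 24 arrays differed from gene to gene. By Pearson's r of the log2 level, ALPP was closest to HDAC9 (0.917) and CACNG4 (0.911), and CAV1 to LRATD1 (0.947), PDK4 (0.940) and PLCE1 (0.935). CAV2 was closest to WDR19 (0.977) and CYBRD1 (0.977), and ANKRD22 to MSANTD3 (0.953) and DELE1 (0.953). GAS2L3 was closest to IQGAP3 (0.984) and INSIG1 (0.981), and ASPM to HMMR (0.992), KIF20A (0.991) and KIF14 (0.989). Among the 6 genes themselves, GAS2L3 and ASPM correlated at 0.979, ALPP and CAV1 at 0.904, and ALPP and CAV2 at 0.780. These values are descriptions, since all arrays share the same 8 groups and the siRNA separates them.

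Signs of RNA quality and of other cell types were set beside these results. On the log2 scale, the 3' GAPDH control probe set exceeded the 5' one by 0.456 ± 0.033 with HER2 siRNA and 0.314 ± 0.074 with control siRNA at 24 h, and 0.430 ± 0.080 with HER2 siRNA and 0.296 ± 0.063 with control siRNA at 4 h (SD, n = 6 each). Its siRNA difference changed by 0.00747 between the times. For ACTB the 3' probe set exceeded the 5' one by 1.37 ± 0.13 with HER2 siRNA and 1.29 ± 0.26 with control siRNA at 24 h, and by 1.42 ± 0.47 with HER2 siRNA and 1.04 ± 0.29 with control siRNA at 4 h (SD, n = 6 each). Its siRNA difference changed by -0.295 between the times. The part of either measure in the change of the 6 genes between the times was not tested. With the GAPDH measure as a covariate, the 24 h difference of ASPM 232238_at was -2.91 in place of -3.35. Its 4 h difference was -1.19 in place of -1.61. Of 3 measured leukocyte markers, all had mean levels under 5, and LYZ, lysozyme, was 1.08 ± 0.17 higher with HER2 siRNA (adjusted p = 9.07e-06, limma). Their summed level at 24 h was 5.82 to 6.71 with HER2 siRNA and 5.54 to 5.86 with control siRNA, and at 4 h 5.69 to 6.51 with HER2 siRNA and 5.47 to 5.70 with control siRNA. The 6 fibroblast markers, 4 of them with means under 5, summed at 24 h to 9.67 to 10.14 with HER2 siRNA and 9.30 to 9.81 with control siRNA, and at 4 h to 9.91 to 10.19 with HER2 siRNA and 9.63 to 10.09 with control siRNA. COL1A1 had the highest mean of them, 9.58, and was 0.35 ± 0.07 higher with HER2 siRNA (adjusted p = 0.000214, limma). COL1A2 differed by 0.00068 ± 0.04 and DCN by -0.10 ± 0.09, and neither passed. The 4 endothelial markers, 2 of them with means under 5, summed at 24 h to 7.52 to 7.87 with HER2 siRNA and 7.80 to 8.25 with control siRNA, and at 4 h to 7.63 to 8.06 with HER2 siRNA and 7.84 to 8.08 with control siRNA. The 3 basal or mesenchymal markers, 2 of them with means under 5, summed at 24 h to 8.98 to 10.28 with HER2 siRNA and 8.85 to 10.05 with control siRNA, and at 4 h to 9.41 to 10.20 with HER2 siRNA and 9.48 to 9.82 with control siRNA. The 9 luminal markers, ERBB2 among them, summed at 24 h to 15.70 to 15.81 with HER2 siRNA and 15.83 to 16.05 with control siRNA, and at 4 h to 15.60 to 15.85 with HER2 siRNA and 15.92 to 15.9998 with control siRNA. Sums are log2 of summed linear levels, and their part in the results was not tested.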

How the data were processed

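Total RNA of 24 samples was hybridised to 1 array each. The deposited values are log2 levels that the authors made with RMA, per the submitters' processing notes; its version is not given in the sources used here. No further normalization was applied. Probe sets were named from GEO's platform annotation: 41097 carry 1 symbol, 1801 several and 11777 none. One mean per group was fitted in limma 3.58.1 (R 4.3.3, with data.table, version 1.17.8) to 26508 probe sets (14344 genes) with 1 symbol and a log2 level of at least 5 in at least 3 arrays, and 9 comparisons were each adjusted by Benjamini-Hochberg at 0.05. The fit was tested on simulated data. Figures used Python 3.11.15, pandas 2.3.3 and matplotlib 3.10.9.

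The genes and lists were chosen with earlier results of these data known. Every probe set of the 6 genes is described; from each list, up to 4 genes with the smallest adjusted p in the averaged siRNA comparison or the time change may be named, and the 5 genes most alike by Pearson's r were ranked. The alternatives were other filters, scalings, variance models, a GAPDH covariate, the replicate block, and leaving out each array. For HER2 siRNA at 24 h, estrogen and vehicle arrays of the same replicate number deviated together (lowest correlation 0.313 over 3 pairs), so these numbers pair the arrays. The other 3 estrogen comparisons were paired less evenly, with 2 of 3 pairs over 0.1 in each. Their lowest correlation was 0.0456 with control siRNA at 24 h, -0.0340 with HER2 siRNA at 4 h and 0.0900 with control siRNA at 4 h. One label of HER2 siRNA estrogen 4 h replicate 3 names 24 h, while its other labels name 4 h, where it was placed. In 3 arrays the sample number runs apart from the others.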

Additional observations from a re-analysis of the deposited data

How the results depend on the processing

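Averaged over hormone and time, the siRNA calls of the 12 tested probe sets held in every alternative run, as did the 6 time calls; no called value of the 6 genes reversed. Of 3744 tested values under an alternative, 53 lost and 34 gained a call, and of 4488 described values 19 moved by more than the replicate spread. The growth of the siRNA effect ranged from 1.67 to 1.84 for ALPP. Over all probe sets, the replicate block gave 90 calls for estrogen with control siRNA at 4 h (59 without it), 193 with HER2 siRNA at 4 h (125), 39 for the difference of estrogen effects at 24 h (13) and 1303 for the growth of the siRNA effect (619). With the number series added, estrogen with control siRNA at 4 h had 89 calls, the difference at 24 h 31 and the growth 1323. Leaving out the arrays numbered apart gave 1401 for estrogen with control siRNA at 24 h (2569) and 8 for the difference at 24 h. With 1 probe set a gene, fewer features were tested, and 8494 siRNA calls (15126) and 2718 time calls (4275) were made. Array weights gave 3905 for estrogen with control siRNA at 24 h, 32 for the difference at 24 h and 1205 for the growth, and an intensity trend gave 20 for the difference at 24 h. Fitting only the groups compared gave 36 for control siRNA at 4 h, 30 for HER2 siRNA at 4 h, 529 for HER2 siRNA at 24 h (1134) and 7 for the difference at 24 h. The cause was not tested.

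Leaving out 1 array at a time gave 14800 to 15140 siRNA calls, 25 to 62 and 1550 to 2731 for estrogen with control siRNA at 4 and 24 h, 67 to 129 and 656 to 1212 with HER2 siRNA, 9 to 24 for the difference at 24 h, 3487 to 4674 for time and 395 to 711 for the growth. The difference of estrogen effects at 4 h had 0 calls in limma throughout, with 754 probe sets at an unadjusted p under 0.05, and 0 with array weights or an intensity trend. Same-numbered arrays deviated together with a correlation over 0.1 in 58 of 84 pairs, so the pairing was partial in comparisons that span several groups. The replicate block brought CAV2 203323_at past the threshold for estrogen with control siRNA at 24 h (adjusted p = 0.0165) and for the difference of estrogen effects at 24 h (0.0169), and CAV2 203324_s_at for time (0.0173). With CAV1 212097_at these are the calls of the 6 genes that the block changed. With 8 group means in place of 24 arrays, the number of the 5 most alike genes kept was 2 for ALPP, 1 for CAV1, 0 for CAV2, 3 for ANKRD22, 1 for GAS2L3 and 0 for ASPM. The number of arrays, and levels near background for ALPP and the caveolins with control siRNA, limit what could be measured.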
